A study of Zea mays with 12 samples.

Results

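The maize gene *liguleless2* (*lg2*, GRMZM2G060216) and its paralog *liguleless related sequence1* (*lrs1*, AC232238.2_FG004) were followed across 4 genotypes in RNA-seq of laser-microdissected (LM) bract primordia. Both were chosen by name and identifier as the *lg2* pair. They are 2 of the 20168 genes in the deposited expression table, and both have a value in all 12 libraries. The study had already reported both as lower in *tsh* mutants on these same samples. Their direction and calls below are therefore a description and not independent evidence, also where the share over all genes is given. The genotypes were *tsh1 tsh4* double mutants, *tsh4* mutants, *tsh1* mutants and the reference inbred B73, with 3 biological replicates each. The mutants carried *tsh1-ref*, a large deletion with a *Mutator* insertion, and *tsh4-rm*, a *Mutator* insertion in the first intron, both repeatedly backcrossed to B73. The captured tissue came from young ears of greenhouse plants, at the top nodes where bracts were just starting to form and no axillary meristem had become visible yet. The RNA from these few cells was amplified in vitro before sequencing. How many plants went into a replicate is not given in the sources used here.

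*lg2* encodes a bZIP transcription factor needed for the ligule and auricle, the structures that mark the border between sheath and blade of a grass leaf. It is also known for its part in the making of long tassel branches. *tsh1* encodes a GATA zinc-finger protein and *tsh4* an SBP-box transcription factor, and both repress the growth of the bract, the leaf below a floral branch that normally stays a small ridge in maize. The comparison asked how much RNA of the *lg2* pair was present in this ridge when either or both repressors were lost.

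The libraries held between 49481413 and 110703826 reads on genes, recovered from the step between low values. *lg2* was covered by 350 to 10513 reads per library and *lrs1* by 226 to 3435. The labels were checked on the mutated loci. The gene taken here as *tsh1* (GRMZM2G325850) had a mean of 0.521 CPM in *tsh1 tsh4* and 0.527 CPM in *tsh1*, against 22.5 CPM in *tsh4* and 67.4 CPM in B73. GRMZM2G026013, a gene placed inside the *tsh1-ref* deletion, had 0 CPM in all *tsh1 tsh4* and *tsh1* libraries. It had 10.9 to 13.0 CPM in *tsh4* and 13.5 to 19.9 CPM in B73. The study inferred the reach of this deletion from genes without transcripts in its own *tsh1-ref* samples. The zeros in *tsh1* are thus no independent check. The SBP-box gene *sbp6* (GRMZM2G307588), taken here as *tsh4*, had a mean of 60.1 CPM in *tsh1 tsh4* and 73.7 CPM in *tsh4*, against 1063 CPM in *tsh1* and 1323 CPM in B73.

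*lg2* RNA was lower in every mutant library than in every B73 library, and lowest in the double mutant. Values are TMM-normalized CPM, which are reads scaled to library size and composition. In *tsh1 tsh4* the 3 replicates had 13.2, 5.53 and 14.3 CPM of *lg2*. In *tsh4* they had 28.9, 16.7 and 22.9 CPM. *lg2* stood at 33.2, 45.1 and 39.0 CPM in *tsh1*, and at 92.8, 68.7 and 67.5 CPM in B73. No library of one genotype overlapped the range of another, and the order was *tsh1 tsh4*, *tsh4*, *tsh1* and B73 from low to high. Means were 11.0 ± 4.79 CPM in *tsh1 tsh4*, 22.9 ± 6.09 CPM in *tsh4*, 39.1 ± 5.94 CPM in *tsh1* and 76.3 ± 14.3 CPM in B73 (SD, n = 3 each). As a share of the B73 mean, *lg2* was at 14.4% in *tsh1 tsh4*, 30.0% in *tsh4* and 51.2% in *tsh1*. In the whole table, 23 genes (0.114%) kept the 4 genotypes apart in this same order, 12 of which fell at least as far as *lg2* in *tsh1 tsh4*, *lg2* included.

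*lrs1* was also lower in every mutant library than in every B73 library, but the double mutant and *tsh4* could not be told apart. In *tsh1 tsh4* the replicates had 5.51, 4.94 and 8.38 CPM of *lrs1*, and in *tsh4* they had 8.59, 4.24 and 7.93 CPM. In *tsh1* they had 14.3, 14.2 and 14.6 CPM, against 30.3, 16.7 and 25.3 CPM in B73. The *tsh1 tsh4* and *tsh4* ranges of *lrs1* overlap, and both lie below *tsh1*, which lies below B73. The share of all genes whose libraries separate in this way was not counted. Means were 6.28 ± 1.84 CPM in *tsh1 tsh4*, 6.92 ± 2.34 CPM in *tsh4*, 14.4 ± 0.220 CPM in *tsh1* and 24.1 ± 6.88 CPM in B73 (SD, n = 3 each). These are 26.0%, 28.7% and 59.6% of the B73 mean in *tsh1 tsh4*, *tsh4* and *tsh1*. In such bulk RNA, fewer cells that express a gene and less RNA per cell cannot be told apart.

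**Figure D1:**
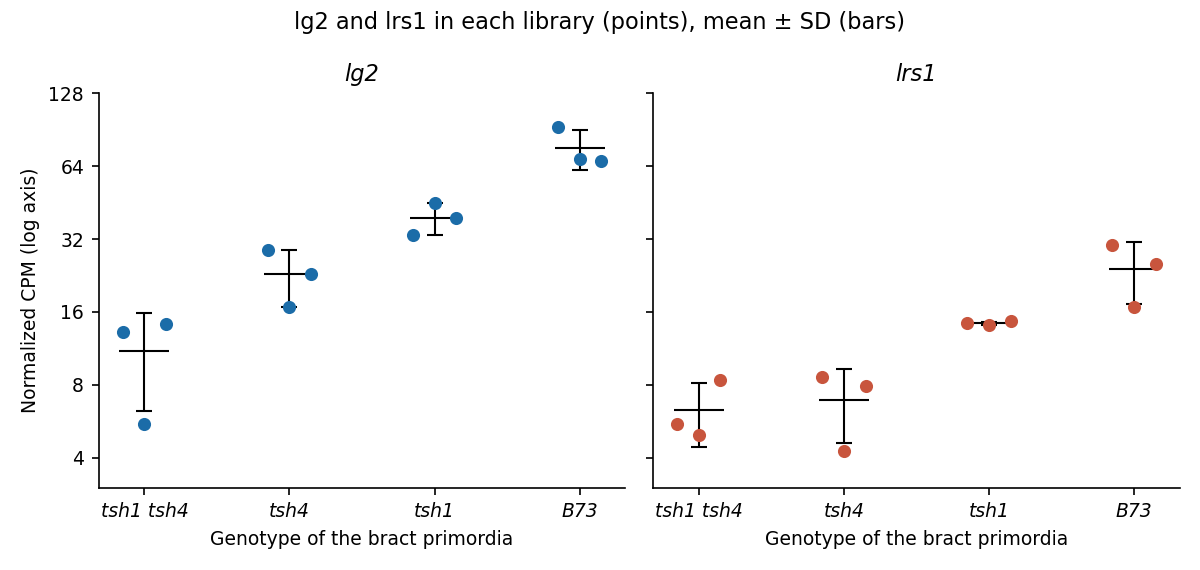
Normalized CPM of *lg2* (left) and *lrs1* (right) on a log axis, with 1 point per library and bars for the mean ± SD of 3 replicates in *tsh1 tsh4*, *tsh4*, *tsh1* and B73. The points of *lg2* fall into 4 separate ranges with means of 11.0, 22.9, 39.1 and 76.3 CPM, while those of *lrs1* overlap between *tsh1 tsh4* and *tsh4*.

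Both genes were lower in mutants that lacked both repressors. Differences were tested with limma on log2(CPM + 0.1) over all 20168 genes, and a gene was called at a Benjamini-Hochberg adjusted p of at most 0.05 and a log2 fold change of at least 1 in size. In *tsh1 tsh4* minus B73, *lg2* fell by 2.88 on the log2 scale (SE 0.29, adjusted p = 6.1e-06), with a 95% interval of -3.50 to -2.26. This was the 77th deepest fall in the table. *lrs1* fell by 1.92 (SE 0.27, adjusted p = 0.000185), with an interval of -2.50 to -1.34. Both members were thus called lower, against 3.15% of all genes called lower in that comparison and 5.84% called in either direction. Each call was kept in all 22 alternative fits, with *lg2* between -3.13 and -2.45 and *lrs1* between -2.16 and -1.74.

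Mutants with the *tsh4* mutation alone also had less RNA of both genes, with similar falls of *lg2* and *lrs1*. The gene taken here as *tsh1* was itself called lower in these mutants, at -1.55 (limma adjusted p = 0.00168). In *tsh4* minus B73, *lg2* fell by 1.75 (SE 0.29, adjusted p = 0.00137, 95% interval -2.38 to -1.13) and *lrs1* fell by 1.81 (SE 0.27, adjusted p = 0.000579, interval -2.39 to -1.23). Both were called lower in this fit and in all 22 alternatives, against 1.77% of all genes called lower and 3.81% called in either direction. Only 153 genes of the table fell further than *lg2* in *tsh4*, and 141 fell further than *lrs1*.

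Neither member passed the test in *tsh1* minus B73, where 0.719% of all genes were called lower and 1.16% in either direction. *lg2* differed by -0.96 (SE 0.29, 95% interval -1.58 to -0.33), with an unadjusted p of 0.00489 and an adjusted p of 0.160 from limma. The value for *lrs1* was -0.70 (SE 0.27, interval -1.28 to -0.12), with an unadjusted p of 0.0211 and an adjusted p of 0.358. Both intervals lie below 0 and the *tsh1* libraries do not overlap B73, but the share of all genes that separate so was not counted. Neither difference met the adjusted p or the size required for a call. The study itself describes *lg2* RNA as down-regulated in *tsh1* single mutants. By immunolocalization it also reports less or no LG2 protein in the bract region of *tsh1*, with the protein largely kept in the boundary beside the meristem. The missing call here is of RNA, at a threshold adjusted over all genes. Over the 22 alternative fits the adjusted p of *lg2* ran between 0.0253 and 0.525 and that of *lrs1* between 0.171 and 0.886, and neither was called in any of them. The 0.0253 came without *tsh1 tsh4* replicate 2, where *lg2* stood at -0.96 and missed only the size required. The 3 mutants were set against the same B73 libraries, so the 3 differences of a gene are not independent. A 2-sided exact permutation test of 3 against 3 libraries gave p = 0.1 for each gene in each mutant, which is the smallest p that design can give.

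The mutants were also compared with each other, which shows what each further loss changed. In *tsh1 tsh4* minus *tsh1*, where *tsh4* was lost in a *tsh1* background, *lg2* fell by 1.92 (SE 0.29, limma adjusted p = 0.000557, 95% interval -2.55 to -1.30). *lrs1* fell by 1.22 in the same comparison (SE 0.27, adjusted p = 0.0137, interval -1.80 to -0.64). Both were called, against 1.5% of all genes called lower and 3.6% called in either direction. The call of *lrs1* was lost without *tsh1* replicate 3 (-1.21, adjusted p = 0.0501) and without *tsh1 tsh4* replicate 2 (-1.07, adjusted p = 0.0687).

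In *tsh1 tsh4* minus *tsh4*, the *tsh1* mutation was added to a *tsh4* background that already had less *tsh1* RNA. Neither member was called, against 0.322% of all genes called lower and 0.674% called in either direction. *lg2* differed by -1.13 (SE 0.29, 95% interval -1.75 to -0.50, limma adjusted p = 0.122) and *lrs1* by -0.11 (SE 0.27, interval -0.69 to 0.47, adjusted p = 0.982). With DESeq2 on recovered reads, *lg2* was called at -1.05 and an adjusted p of 0.0339. Without *tsh1 tsh4* replicate 2, the library with the least *lg2*, its difference was -0.69 with an adjusted p of 0.440.

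Set directly against *tsh1*, *tsh4* mutants had less *lrs1*, at -1.11 on the log2 scale (SE 0.27, limma adjusted p = 0.0279, 95% interval -1.69 to -0.53). This call was the least secure, since it was lost in 4 of the 12 fits that left out a library, namely *tsh4* replicate 2 (-0.79, adjusted p = 0.184) and any one of the 3 *tsh1* replicates. *lg2* differed by -0.80 in *tsh4* minus *tsh1* (SE 0.29, interval -1.42 to -0.17, adjusted p = 0.216) and was not called, whereas 1.12% of all genes were called lower and 3.37% in either direction. Of the neighbours in the order of *lg2* levels, then, none differed by the call although none overlapped, while *tsh4* against B73 and *tsh1 tsh4* against *tsh1* did.

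**Figure D2:**
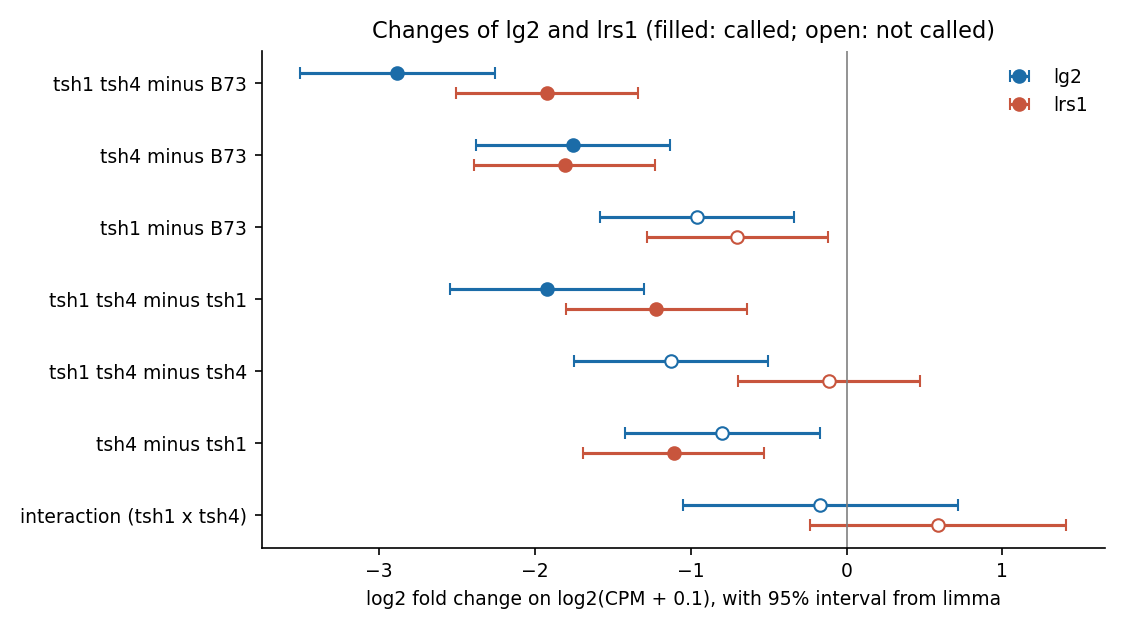
Log2 fold change of *lg2* (blue) and *lrs1* (red) on log2(CPM + 0.1) with the 95% interval from limma, in 6 comparisons and the interaction, with filled points for called differences. *lg2* lies at -2.88 in *tsh1 tsh4* minus B73 and at -0.96 in *tsh1* minus B73, and the 2 genes sit nearly together in *tsh4* minus B73, at -1.75 and -1.81.

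The single-mutant changes nearly added up for *lg2*. The interaction is what remains of the double-mutant change after both single-mutant changes are subtracted. The *tsh4* single mutants also had less *tsh1* RNA, and its part in these sums was not tested. The single-mutant changes of *lg2* sum to -2.71, beside the measured -2.88, and the interaction was -0.17 (SE 0.42, 95% interval -1.05 to 0.71, limma adjusted p = 0.9998). In CPM, additivity on the log2 scale would give a geometric mean of 11.4 for *lg2* in *tsh1 tsh4*, and 10.2 was observed. For *lrs1* the sum was -2.51 beside a measured -1.92, an interaction of 0.59 (SE 0.39, interval -0.23 to 1.41, adjusted p = 0.9998), which was 0.27 without *tsh4* replicate 2. The observed geometric mean of *lrs1* was 6.11 CPM, where additivity would give 4.03 CPM. Neither interaction passed the test, which called 0.288% of all genes, 0.109% in the negative direction, and the intervals still include a departure from additivity of -1.05 for *lg2* and of 1.41 for *lrs1*.

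The effect of each mutation averaged over both backgrounds was tested with 2-sided exact permutations of 6 against 6 libraries within the other genotype state, with p adjusted over 6 tests. The *tsh4* mutation lowered *lg2* by a mean log2 difference of -1.84 and *lrs1* by -1.51, each with an exact p = 0.005, the smallest that 400 arrangements can give, and an adjusted p of 0.01. The *tsh1* mutation lowered *lg2* by -1.04 with the same exact p = 0.005 and adjusted p of 0.01. For *lrs1* the averaged *tsh1* difference was -0.41, with an exact p = 0.14 and an adjusted p of 0.168. Hence *lg2* was lower with the *tsh1* mutation on average over both backgrounds, though it was not called in either background alone by the test over all genes. The average does not show a fall in each background. It is adjusted over 6 tests only, on genes that the study had already reported as lower in these samples. The share of all genes that reach this p was not counted. The averaged *tsh1* difference of *lrs1* passed the threshold only without *tsh4* replicate 2, where it was -0.56 with an exact permutation adjusted p of 0.045.

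**Figure D3:**
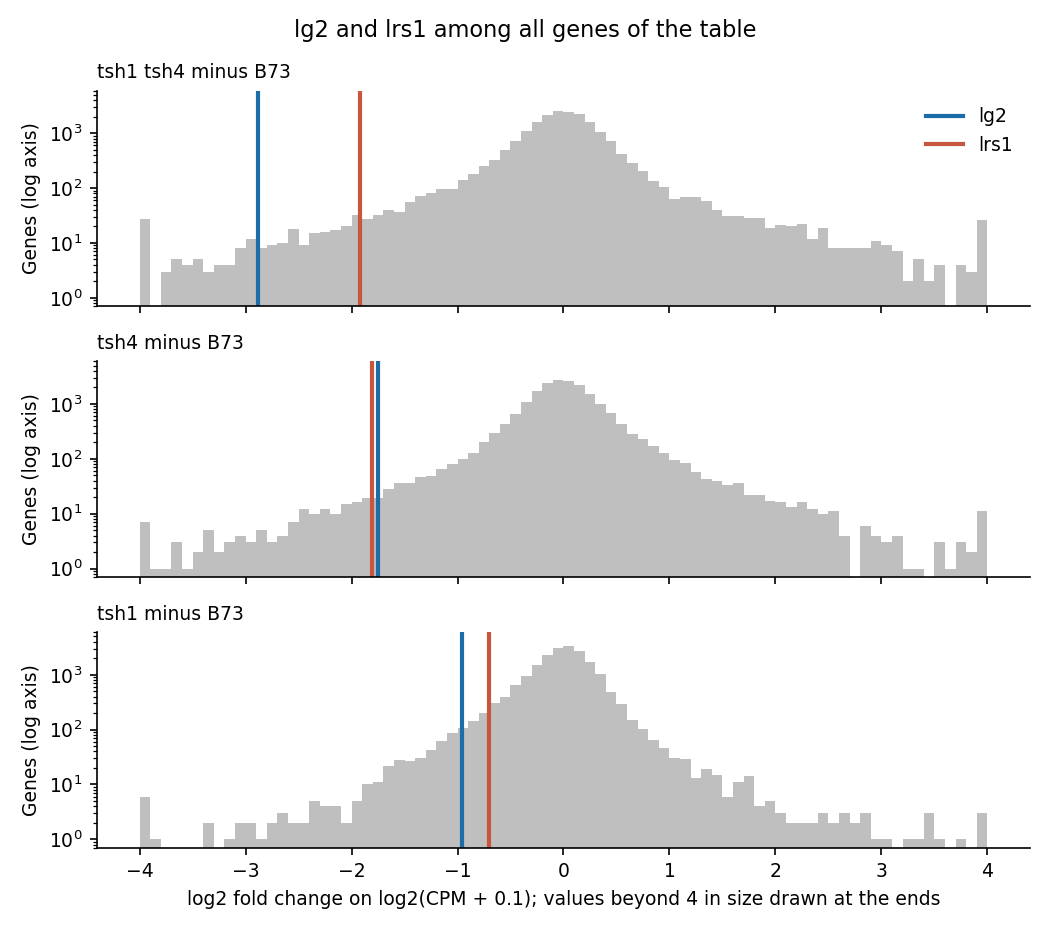
Number of genes (log axis) at each log2 fold change on log2(CPM + 0.1) for *tsh1 tsh4*, *tsh4* and *tsh1* minus B73, from top to bottom, with lines at *lg2* (blue) and *lrs1* (red). Both lie in the lower tail, at -2.88 and -1.92 in *tsh1 tsh4*, at -1.75 and -1.81 in *tsh4*, and nearer the bulk of genes at -0.96 and -0.70 in *tsh1*.

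The ratio of *lg2* to *lrs1* within a library shows whether the paralogs fell unequally. It is compared only between genotypes, because levels of 2 genes would need their transcript lengths. The ratio was 2.40, 1.12 and 1.71 in *tsh1 tsh4*, 3.37, 3.95 and 2.89 in *tsh4*, 2.32, 3.18 and 2.67 in *tsh1*, and 3.06, 4.11 and 2.66 in B73. The *tsh1 tsh4* libraries were lower than all *tsh4* and B73 libraries and overlapped *tsh1* in 1 library. Means were 1.74 ± 0.641 in *tsh1 tsh4*, 3.40 ± 0.527 in *tsh4*, 2.72 ± 0.435 in *tsh1* and 3.28 ± 0.746 in B73 (SD, n = 3 each).

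Averaged over both *tsh4* states, the *tsh1* mutation lowered the log2 ratio by a mean difference of -0.64, with an exact permutation p = 0.025 and an adjusted p of 0.0375. This passed in 6 of 12 fits that left out a library and failed without B73 replicate 2, *tsh1* replicate 1 or 3, or any one *tsh4* replicate, where the adjusted exact p ran from 0.0525 to 0.0825. The average joins unlike parts, since the mean log2 ratio was 0.72 in *tsh1 tsh4* against 1.74 in *tsh4*, but 1.43 in *tsh1* against 1.68 in B73. In *tsh1* minus B73 alone the difference was -0.26, with an exact permutation p = 0.5. The *tsh4* mutation changed the log2 ratio by -0.32, with an exact p = 0.21 and an adjusted p of 0.21. Whether the *tsh1* difference in ratio itself differs between *tsh4* and wild-type backgrounds was not tested.

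**Figure D4:**
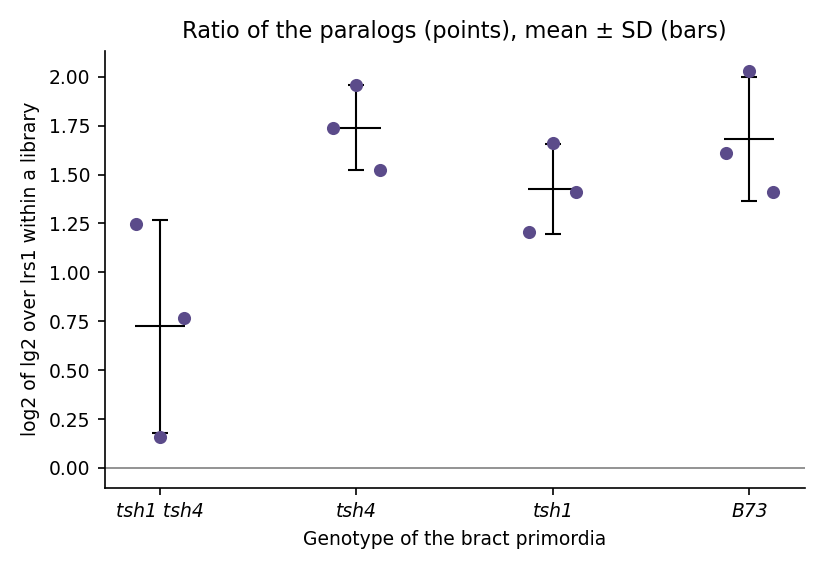
Log2 of the *lg2* to *lrs1* ratio within each library (points), with the mean ± SD of 3 replicates, in *tsh1 tsh4*, *tsh4*, *tsh1* and B73. The *tsh1 tsh4* libraries lie between 0.16 and 1.25, below the *tsh4* libraries at 1.52 to 1.96 and the B73 libraries at 1.41 to 2.03.

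The pair varied more between replicates than most genes of like level. The within-genotype SD on the log2 scale was 0.457 for *lg2*, larger than in 96.5% of 3433 genes within 1.5-fold of its mean level, whose median SD was 0.230. For *lrs1* it was 0.403, larger than in 90.1% of 3521 such genes, whose median was 0.246. The 2 genes tended to deviate together. Their deviations from the genotype means had the same sign in 9 of 12 libraries, with a Pearson r of 0.67 across the 12 libraries, between 0.61 and 0.75 when any one was left out. Both values of a library come from the same capture, amplification and depth, and the correlation is given as a description. *tsh4* replicate 2 was low in both genes, by -0.41 for *lg2* and -0.63 for *lrs1*, while *tsh1 tsh4* replicate 2 was low mainly in *lg2*, at -0.87 against -0.30 for *lrs1*.

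The genes with a pattern most like each member were found by Pearson r on log2(CPM + 0.1) over the 12 libraries, among 17271 genes with a mean of at least 1 CPM. For *lg2* these were GRMZM2G118821 (r = 0.973), GRMZM2G444567 (0.968), GRMZM2G139324 (0.962), GRMZM5G805685 (0.959) and GRMZM2G423669 (0.955). For *lrs1* these were GRMZM2G139328 (r = 0.959), GRMZM2G127431, listed as OFP29 in the gene table (0.958), GRMZM2G030009 (0.953), GRMZM2G432796 (0.949) and GRMZM2G140917 (0.949). *lrs1* ranked 77th among the genes most like *lg2*, and *lg2* 45th among those most like *lrs1*, with r = 0.91 between them. These lists depend on single libraries, since leaving out 1 kept between 1 and 4 of the 5 genes for *lg2* and between 1 and 5 for *lrs1*.

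Other genes of the ligule and of leaf patterning showed smaller values than the *lg2* pair in *tsh1 tsh4* and in *tsh4*. Of 16 names listed for the ligule and the blade-sheath border, 9 had a value. In *tsh1 tsh4* minus B73, 3 of the 9 were called lower and none higher, where 3.15% of all genes were called lower, with a median log2 fold change of -0.62 beside -0.01 over all genes. In *tsh4* 1 of 9 was called lower, beside 1.77% of all genes (median -0.45, all genes -0.01). In *tsh1* 0 of 9 was called, beside 0.719% of all genes called lower (median -0.36, all genes 0.00). *gnarley1*, a class I *knox* homeobox gene, had a mean of 67.3 CPM in *tsh1 tsh4* and 45.5 CPM in *tsh4*, against 140.2 CPM in B73. It was called in *tsh4* at -1.63 (limma adjusted p = 0.00199) and in *tsh1 tsh4* at -1.10 (adjusted p = 0.0226), and the second call was lost without B73 replicate 3 (-0.91) or *tsh1 tsh4* replicate 1 (-0.79), and without the intensity trend (adjusted p = 0.051).

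*mwp1*, a KANADI gene of leaf polarity, had a mean of 39.4 CPM in *tsh1 tsh4* against 104.8 CPM in B73, a called change of -1.47 (limma adjusted p = 0.00151). It had 54.2 CPM in *tsh4* and 81.3 CPM in *tsh1*. In *tsh4* it stood at -0.99 (adjusted p = 0.0381), just short of the size required, and was called with equal library totals (-1.01), without B73 replicate 1 (-1.11) and without *tsh4* replicate 3 (-1.20). *ns1*, a WOX homeobox gene for the leaf margin, was called in *tsh1 tsh4* at -1.15 (adjusted p = 0.0297), with 22.3 CPM against 48.6 CPM in B73. That call did not survive leaving out B73 replicate 1 or 2 or *tsh1 tsh4* replicate 2 or 3, with values between -1.15 and -0.87, nor a fit without the intensity trend (adjusted p = 0.0644). *rs2*, a MYB gene that keeps *knox* genes off in leaves and the most abundant of the list, was not called against B73 in any mutant. It had 385.8 CPM in *tsh1 tsh4*, 570.3 CPM in *tsh4* and 291.5 CPM in *tsh1*, against 349.8 CPM in B73. In *tsh4* minus B73 it stood at 0.72 (limma adjusted p = 0.190), and it was called higher in *tsh4* minus *tsh1* at 1.03 (adjusted p = 0.0490). The *lg2* values of -2.88 in *tsh1 tsh4* and -1.75 in *tsh4* lay below every value of this list in the same mutant, but in *tsh1* *ns1* stood at -1.01 and *lg2* at -0.96. The differences between genes were not tested.

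Genes of organ boundaries had smaller values than the *lg2* pair in *tsh1 tsh4* and *tsh4*. In *tsh1 tsh4* minus B73, *ZmATH1*, a BELL homeobox gene, changed by -1.15 (limma adjusted p = 0.00562) and *ZmLOF2*, a MYB gene, by -1.0 (adjusted p = 0.00525), and both were called. *ZmCUC3*, a NAC gene that marks boundaries, was called in *tsh4* at -1.19 (adjusted p = 0.00137) and stood at -0.99 in *tsh1 tsh4* (adjusted p = 0.00373), just short of the size required. In *tsh1*, *ZmATH1* stood at -0.95, close to *lg2* at -0.96 and lower than *lrs1* at -0.70. It was not called there (adjusted p = 0.0687), but was with equal library totals (-1.02) and without *tsh1* replicate 2 (-1.12). These 3 genes were chosen by the study on these samples, so their direction is not independent evidence. Each *tsh1 tsh4* call rested on a value near the threshold. *ZmATH1* was at -0.96 without B73 replicate 1 and -0.89 without *tsh1 tsh4* replicate 2, *ZmLOF2* was at -0.74 and -0.94 without the same libraries and at -0.98 with a pseudocount of 1 or median centring, and *ZmCUC3* reached -1.11 without B73 replicate 1, -1.01 without *tsh1 tsh4* replicate 2 and -1.16 without replicate 3.

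Other genes named as bZIP factors showed no common fall. Of 34 such names, 24 had a value, and in *tsh1 tsh4* minus B73 the median was 0.06, with 2 called higher and 1 lower, beside 5.84% of all genes called in either direction. In *tsh4* 2 were called higher and none lower (median 0.04), beside 3.81% of all genes in either direction, and in *tsh1* none was called (median -0.02), beside 1.16%. *bZIP84* had a mean of 9.64 CPM in *tsh1 tsh4* and 8.72 CPM in *tsh4*, against 2.71 CPM in B73, and was called higher at 1.80 and 1.65 (limma adjusted p = 4.4e-05 and 0.000210). *bZip112* was called higher in the same mutants at 2.39 and 2.23 (adjusted p = 0.00508 and 0.0125), although the *tsh4* call was lost without B73 replicate 1 or 2 or *tsh4* replicate 3, at 2.00 to 2.01. *bZIP9* was called lower in *tsh1 tsh4* at -1.49 (adjusted p = 0.00681), with 0.702 CPM against 2.08 CPM in B73, and lost that call with a pseudocount of 1, at -0.86.

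**Figure D5:**
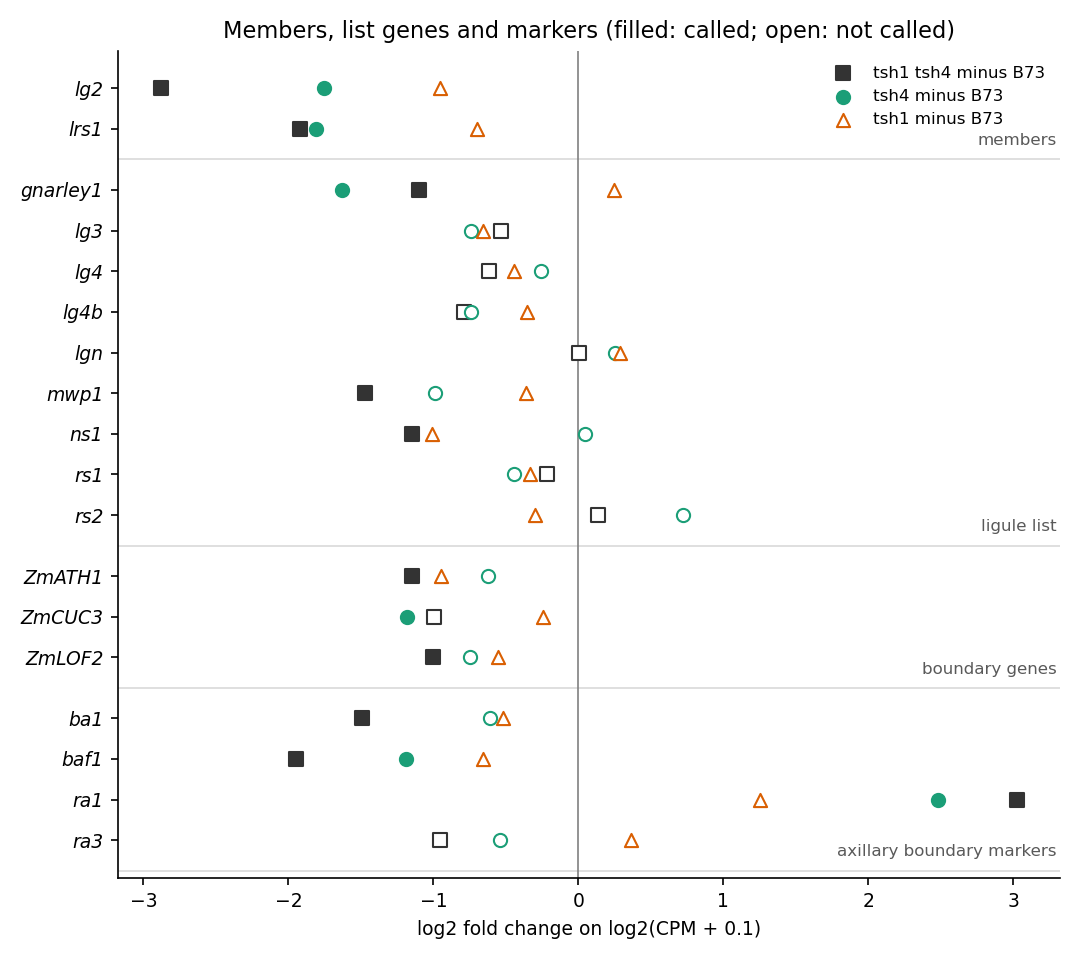
Log2 fold change on log2(CPM + 0.1) in *tsh1 tsh4* (squares), *tsh4* (circles) and *tsh1* (triangles) minus B73 for *lg2* and *lrs1*, the ligule list, 3 boundary genes and 4 axillary boundary markers, with filled symbols for called differences. *lg2* has the lowest value of all, at -2.88 in *tsh1 tsh4*, followed by *baf1* at -1.95 and *lrs1* at -1.92.

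Markers of the tissue and of its neighbours moved to different degrees. *zyb15*, a YABBY gene marking the suppressed bract, had 1391 to 1745 CPM in *tsh1 tsh4*, 1378 to 1643 CPM in *tsh4*, 1347 to 1804 CPM in *tsh1* and 1033 to 1563 CPM in B73, and was not called in any mutant. Relative to *zyb15* in the same library, *lg2* was at 0.365% to 0.949% in *tsh1 tsh4*, 1.22% to 1.76% in *tsh4*, 1.84% to 3.35% in *tsh1* and 4.40% to 8.99% in B73. The 4 genotypes did not overlap in this ratio, though *tsh4* and *tsh1* came close. With *zyb15* called in no mutant, the ratio largely repeats the separation in CPM. The share of all genes that separate so relative to *zyb15* was not counted. *lrs1* was at 0.326% to 0.480%, 0.308% to 0.541%, 0.795% to 1.05% and 1.071% to 2.94% of *zyb15* in *tsh1 tsh4*, *tsh4*, *tsh1* and B73.

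Markers of the boundary next to the axillary meristem, which the capture was meant to avoid, had a summed level that was lower in the mutants, as *lg2* was, but the single markers differed in direction. Of 5 such genes 4 had a value, and none was at 0 in any library. In *tsh1 tsh4* and in *tsh4* minus B73, 3 of the 4 were below 0 on the log2 scale (medians -1.22 and -0.58), and in *tsh1* 2 of 4 were (median -0.08). *ba1* made up most of the sum, with a mean of 47.8 CPM in *tsh1 tsh4*, 90.04 CPM in *tsh4*, 92.3 CPM in *tsh1* and 132.6 CPM in B73. Their summed level ran from 54.1 to 77.5 CPM in *tsh1 tsh4*, 82.9 to 150.1 CPM in *tsh4*, 122.4 to 137.5 CPM in *tsh1* and 170.9 to 193.6 CPM in B73. The mean sum was 35.7% of B73 in *tsh1 tsh4*, 63.8% in *tsh4* and 71.8% in *tsh1*, where *lg2* was at 14.4%, 30.0% and 51.2%. Within a library, *lg2* was 0.102 to 0.215 of that sum in *tsh1 tsh4*, 0.153 to 0.259 in *tsh4*, 0.260 to 0.328 in *tsh1* and 0.348 to 0.543 in B73. In this ratio B73 was above all mutants, while *tsh1 tsh4* and *tsh4* overlapped. *tsh1* lay above *tsh4* by a very narrow gap, with a lowest value of 0.2599 against a highest of 0.2587. *lrs1* was 0.0896 to 0.108 of the sum in *tsh1 tsh4*, 0.0512 to 0.0769 in *tsh4*, 0.103 to 0.119 in *tsh1* and 0.0953 to 0.177 in B73. For *lrs1*, then, *tsh1 tsh4* and *tsh1* overlapped B73 in this ratio, and the *tsh4* libraries alone lay below all others. The share of all genes whose ratio to this sum separates genotypes in either way was not counted. The part of these cells in the results for *lg2* and *lrs1* was not tested.

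Within that marker list, *ba1* and *baf1* were reported as lower by the study on these same samples, so their direction is not independent evidence. *ba1*, a bHLH gene of axillary meristem initiation, was called lower in *tsh1 tsh4* at -1.49 (limma adjusted p = 0.000251). *baf1*, an AT-hook gene with a like role, was called in *tsh1 tsh4* at -1.95 (adjusted p = 6.3e-05) and in *tsh4* at -1.19 (adjusted p = 0.00831), the second lost without B73 replicate 2 (-1.04) or *tsh4* replicate 2 (-0.98). *ra3*, a trehalose phosphate phosphatase gene, stood at -0.95 in *tsh1 tsh4*, -0.54 in *tsh4* and 0.36 in *tsh1* and was not called in any of them, though in *tsh1 tsh4* it was called at -1.09 without B73 replicate 2 and -1.06 without *tsh1 tsh4* replicate 1. *ra1*, a zinc-finger gene of branch determinacy, went the other way, with a called 3.03 in *tsh1 tsh4* and 2.48 in *tsh4*, and 1.25 in *tsh1* that was not called, at levels of at most 2.45 CPM, where the *tsh4* value was 0.99 and not called with a pseudocount of 1. The 7 measured *knox* genes that mark the shoot meristem, *gnarley1* among them, summed to 505.0 to 865.9 CPM in *tsh1 tsh4*, 465.0 to 673.9 CPM in *tsh4*, 589.5 to 873.4 CPM in *tsh1* and 822.4 to 1040.1 CPM in B73. Their order across the mutants differs from that of *lg2*, with *tsh4* lowest by the mean.

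The nearest genes to *lg2* that could be placed on its chromosome gave no like pattern. They were the 3 measured genes on either side with a match in the gene list of another build. Measured genes without a match may lie nearer, and *lrs1* had no match, so its neighbours were not looked at. Among these genes, chosen after the data were seen, the median log2 fold change was -0.06 in *tsh1 tsh4*, -0.12 in *tsh4* and -0.12 in *tsh1* minus B73. None of the 6 was called lower and 1, of low level, was called higher in *tsh1 tsh4* and *tsh4*.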

How the data were processed

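The deposited table holds 1 signal per gene and library, TMM-normalized CPM to 3 decimals, for 12 libraries of LM ear bract primordia in 4 genotypes. Per the labels and methods, the authors used FastQC, Trimmomatic 0.36, STAR 2.6.0a to B73 RefGen_v3, featureCounts and edgeR 3.22.5, and kept genes above 0.25 CPM in at least 3 libraries. The strand setting of counting is not given in the sources used here. Amplification in 2 rounds can add variation between replicates. Dividing by the value of 1 read gave whole reads for 100% of values (tolerance 0.0006 CPM), which set depth and served the count models.

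All genes were fitted with limma 3.58.1 (R 4.3.3; intensity trend, no replicate block) on log2(CPM + 0.1) in 1 fit, which was tested on simulated data. Genotypes came from the sample titles. Fold changes are on the log2(CPM + 0.1) scale and understate changes of low genes. For the interaction the adjusted p alone made a call. The fit was repeated with 0.01 or 1 added in place of 0.1, with genes under a mean of 1 CPM removed, with the compared genotypes alone, without the trend, with a replicate block, with equal column totals, with each library centred on its median, and without each library in turn. Recovered reads were tested with edgeR 4.0.16 (quasi-likelihood) and DESeq2 1.42.0. Same-numbered libraries are not described as pairs.

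The members and lists were chosen with earlier results of these data known. Named were the members, the 5 genes most like each, and, per list, the called genes and the most abundant. A planned list of proteins like LG2 could not be made and was replaced, after the files were seen, by genes with a bZIP name. Gene names came from a RefSeq table of another build (Zm-B73-REFERENCE-NAM-5.0), which matched 14381 of 20168 identifiers and not *lrs1*, so no coordinates or sequences are given.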

Additional observations from a re-analysis of the deposited data

How the results depend on the processing

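Values are log2 differences. *lg2* and *lrs1* kept their calls in *tsh1 tsh4* minus B73 and in *tsh4* minus B73, and *lg2* in *tsh1 tsh4* minus *tsh1*, in all 22 alternatives. With DESeq2, *lg2* in *tsh1 tsh4* minus *tsh4* was called at -1.05, and without the trend *lrs1* in *tsh4* minus *tsh1* was no longer called at -1.11 (limma adjusted p = 0.0555). Leaving out 1 library at a time, *lrs1* ran between -1.29 and -0.79 in *tsh4* minus *tsh1* (called in 8 of 12 fits), between -1.45 and -1.07 in *tsh1 tsh4* minus *tsh1* (10 of 12), and between -0.43 and 0.073 in *tsh1 tsh4* minus *tsh4*, where the sign turned. The *lg2* interaction ran between -0.42 and 0.26, also turning sign, and that of *lrs1* between 0.27 and 0.83, not called in any fit. The averaged *tsh1* effect ran between -0.56 and -0.31 for *lrs1* (exact permutation test passed in 1 of 12) and between -0.77 and -0.49 for the log2 ratio (6 of 12). Among genes near 0, *ns1* in *tsh4* ran between -0.20 and 0.30, *rs2* in *tsh1 tsh4* between -0.10 and 0.33, and *bZip112* in *tsh1* between -0.25 and 0.60. The causes were not tested.

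Counts of called genes that moved by over 1.5 times were, for *tsh1 tsh4* minus B73 (1178 genes), 650 with a pseudocount of 1 and 763 with the filter, for *tsh4* minus B73 (768), 414 with a pseudocount of 1, and for *tsh1* minus B73 (234), 370 with DESeq2 and 150 with a pseudocount of 1. In *tsh1 tsh4* minus *tsh1* (727) they were 480 with the filter and 385 with a pseudocount of 1, in *tsh1 tsh4* minus *tsh4* (136) 214 with DESeq2, 85 with the filter and 71 to 160 without 1 library, in *tsh4* minus *tsh1* (679) 364 with a pseudocount of 1, and for the interaction (58) 157 with DESeq2 and 34 to 84 without 1 library. Same-numbered libraries of different genotypes deviated with correlations between -0.41 and 0.73 (median 0.13, n = 18), and differently numbered ones between -0.59 and 0.61 (median 0.01, n = 36). Replicate 1 had the most reads in every genotype, with 80693811 in *tsh1 tsh4*, 97914591 in *tsh4*, 87573173 in *tsh1* and 110703826 in B73. Whether same-numbered libraries share a batch was not tested. With the replicate block 1112, 740 and 193 genes were called in *tsh1 tsh4*, *tsh4* and *tsh1* minus B73, and *lg2* stayed at -2.88 and *lrs1* at -1.92 in *tsh1 tsh4*, with no call of either member changed.

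With 3 replicates a genotype, the 95% interval of a member's difference spans more than 1 log2 unit. Groups of 3 are too small to test single libraries as outliers. *ns1* lost its call in *tsh1 tsh4* under the block, at the same -1.15.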
